A study of Rattus norvegicus with 6 samples.

Results

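The epidermal growth factor (EGF) family of ligands and the ErbB receptors that bind them were examined in RNA-seq libraries of the rat liver cell line BRL-3A. The genes were 7 ligands (Nrg1, Hbegf, Tgfa, Egf, Areg, Btc and Ereg) and 3 receptors (Egfr, Erbb2 and Erbb3), picked by symbol from a table of 30957 gene rows, in which each of the 10 symbols matched 1 row. These genes were chosen with the difference between the groups already known. Their changes, and any p-value printed for them, are therefore a description of these libraries and lend no independent support. The 6 libraries fall into 3 labelled NC, a name that the labels do not spell out, and 3 labelled si-hnrnpa2b1, for cells given siRNA against Hnrnpa2b1, which encodes an RNA-binding protein of the hnRNP family. Per the labels, siRNAs were carried in with a lipid reagent and cells were collected 48 h later. The labels give all 6 libraries the same cell line, Sprague-Dawley strain, liver origin and disease state, that of high blood triglycerides. Of these, the liver label alone was checked against the data, and the others are repeated as given. Whether NC cells received an siRNA, how many siRNAs were used and whether replicates were separate cultures is not stated. The p-values thus cover the spread between these libraries alone, and part of it may be technical.

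EGF family ligands are made as membrane proteins whose outer part is cut off by metalloproteases, above all ADAM17 and ADAM10, and then acts on the same or neighbouring cells. EGF, TGF-alpha and amphiregulin bind EGFR, heparin-binding EGF-like growth factor, betacellulin and epiregulin bind EGFR and ErbB4, and neuregulin-1 binds ErbB3 and ErbB4. ErbB2 has no known ligand of its own and pairs with the other receptors, while ErbB3 has little kinase activity and signals through its partners. In liver, EGFR and its ligands are known for their part in hepatocyte growth and regeneration.

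Library totals lay between 13374412 and 15224108 counts. Hnrnpa2b1 mRNA fell from 1014 ± 56.0 to 607 ± 48.2 CPM (counts scaled by library size and edgeR's TMM factor; mean ± SD, n = 3 libraries per group here and below), a log2 fold change of -0.74 ± 0.06 (SE; edgeR adjusted p = 2.3e-06). The liver label was checked against markers: of 10 hepatocyte genes 6 had 0 counts in all 6 libraries, among them albumin (Alb), Ttr, Apob and Hnf4a, and transferrin (Tf, 26.7 to 33.0 CPM) made up nearly all of their sum, which was 26.9 to 30.1 CPM in NC and 29.3 to 33.7 CPM in si-hnrnpa2b1 libraries. The mesenchymal genes Col1a1 (11427 to 12270 CPM), Col3a1 (1896 to 2143 CPM) and Vim (1286 to 1479 CPM) were abundant. Of the same list Acta2 (135 to 177 CPM), Des (56.2 to 77.4 CPM) and Pdgfrb (24.4 to 35.0 CPM) were lower, and Lrat was at 0. Endothelial Tek (26.3 to 31.1 CPM) and epithelial Krt8 (22.4 to 24.7 CPM) stood near the level of Tf. The 6 leukocyte markers together gave 1.48 to 2.50 CPM in NC and 1.49 to 3.12 CPM in si-hnrnpa2b1 libraries. A row at 0 is not proof of absence in this table, since the collagen gene Col1a2 was also listed at 0 beside its abundant partner Col1a1.

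Egfr was the most abundant of these transcripts per gene length, and Hbegf and Areg led the ligands. Levels between genes are compared in FPKM, which is corrected for length. In NC libraries Egfr stood at 23.7 ± 1.40 FPKM, above 72.0% of the 12261 tested genes. Hbegf followed at 4.70 ± 0.451 FPKM and Areg at 4.59 ± 0.228 FPKM, and the ranges of this pair overlapped. Nrg1 at 1.34 ± 0.273 FPKM overlapped with Erbb2 at 1.33 ± 0.263 FPKM. Btc (0.872 ± 0.186 FPKM), Erbb3 (0.630 ± 0.0502 FPKM), Egf (0.221 ± 0.0290 FPKM) and Tgfa (0.0804 ± 0.0615 FPKM) came next, each below the range of the gene before it. Ereg had a single count, in NC replicate 2. Tgfa ranged from 0.0316 to 0.149 FPKM among NC libraries, a range that overlapped with Ereg.

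The order of levels differed in the si-hnrnpa2b1 libraries. Hbegf at 7.66 ± 0.653 FPKM lay wholly above Areg at 4.24 ± 0.367 FPKM, and Nrg1 at 2.62 ± 0.167 FPKM wholly above Erbb2 at 1.06 ± 0.212 FPKM. Erbb2 now overlapped with Btc (0.890 ± 0.115 FPKM). Tgfa at 0.350 ± 0.125 FPKM overlapped with Erbb3 at 0.472 ± 0.0572 FPKM and lay above Egf at 0.142 ± 0.0332 FPKM. Egfr remained first in order at 19.9 ± 1.92 FPKM.

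**Figure D1:**
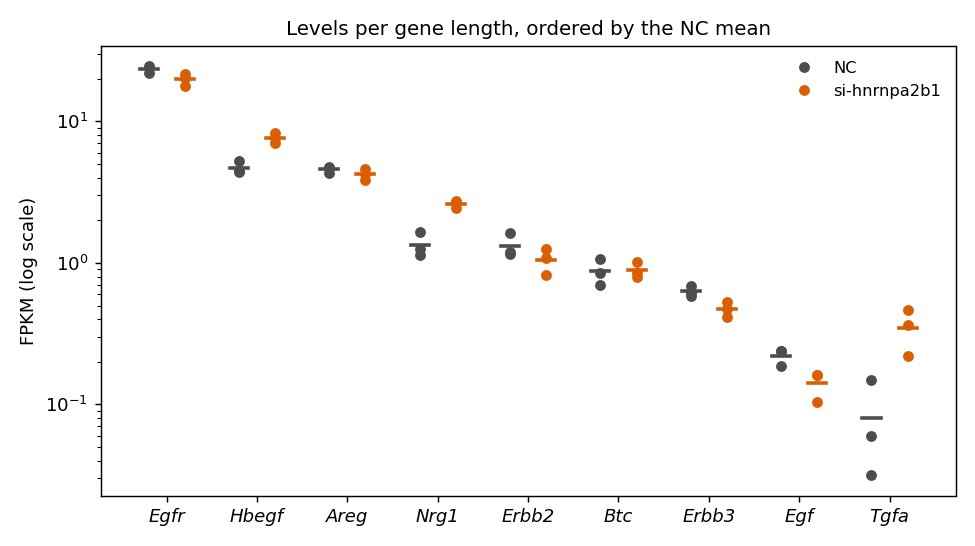
FPKM (log scale) of 9 genes in each library, NC in grey and si-hnrnpa2b1 in orange, ordered by the NC mean; points are libraries and short lines are means. Egfr stands highest in both groups, at 23.7 and 19.9 FPKM, and Hbegf, Nrg1 and Tgfa lie wholly higher in si-hnrnpa2b1 libraries; Ereg, with 1 count in all, is left out.

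The other genes of the family were at or near 0. Epgn (epigen), Nrg3 and Nrg4 had 0 counts in all 6 libraries. Nrg2 had 2 counts in NC replicate 2, and Erbb4, the remaining neuregulin receptor, had 1 count in si-hnrnpa2b1 replicate 1. The span of Nrg4 overlaps that of Fbxo22, which had 3112 counts, and how shared reads were assigned is not stated. A count of 0 is taken to allow up to 3 counts, a one-sided limit unlike the two-sided intervals given for Tgfa. This is 0.199 to 0.227 CPM depending on the library, and covers counting error only. It does not cover a row that is at 0 for another reason, a possibility raised above by Col1a2. Among receptors that bind neuregulin, the transcript detected above that limit was therefore that of Erbb3. None of these 5 genes, nor Ereg, entered the test.

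RefSeq promoter sequences (build GRCr8) matched 7 of the 10 genes; Nrg1, Ereg and Erbb3 had no entry. The 250 bases before the annotated start are shown, 5′ to 3′ on the gene's strand, for Hbegf and Tgfa as ligands that rose, and for Areg and Egfr as the ligand next to Hbegf in level and its receptor. Capitals mark matches on either strand to a GC box (GGGCGG), a cAMP response element (CRE, TGACGTCA), an AP-1 site (TGANTCA), an ATF4-C/EBP element (TGATGNAA) or a TATA box (TATAAA). The regions are chr18:28390221-28390470 (minus strand) for Hbegf, chr4:120175469-120175718 (plus) for Tgfa, chr14:17265642-17265891 (minus) for Areg and chr14:95378376-95378625 (plus) for Egfr.
Hbegf: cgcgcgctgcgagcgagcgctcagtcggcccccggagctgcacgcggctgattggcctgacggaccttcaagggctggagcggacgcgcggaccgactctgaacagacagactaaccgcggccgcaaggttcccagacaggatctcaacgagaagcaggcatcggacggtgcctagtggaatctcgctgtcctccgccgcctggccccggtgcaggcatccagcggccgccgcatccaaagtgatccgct
Tgfa: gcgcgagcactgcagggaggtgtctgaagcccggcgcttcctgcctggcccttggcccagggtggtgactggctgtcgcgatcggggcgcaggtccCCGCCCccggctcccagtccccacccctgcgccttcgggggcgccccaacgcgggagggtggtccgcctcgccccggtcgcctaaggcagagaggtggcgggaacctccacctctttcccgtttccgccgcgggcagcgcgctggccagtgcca
Areg: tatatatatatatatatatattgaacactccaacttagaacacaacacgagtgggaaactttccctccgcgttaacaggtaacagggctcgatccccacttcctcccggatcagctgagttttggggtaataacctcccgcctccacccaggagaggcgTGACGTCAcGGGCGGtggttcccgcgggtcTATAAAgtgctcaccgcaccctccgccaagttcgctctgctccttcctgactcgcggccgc
Egfr: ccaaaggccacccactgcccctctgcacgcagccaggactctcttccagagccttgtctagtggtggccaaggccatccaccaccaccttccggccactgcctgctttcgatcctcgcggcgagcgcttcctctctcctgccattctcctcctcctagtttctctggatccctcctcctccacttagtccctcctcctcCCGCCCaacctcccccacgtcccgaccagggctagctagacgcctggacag
The Areg window held a CRE at position -91 from the start, a GC box at -82 and a TATA box at -61, with no overlap between them. Tgfa held a GC box at -154 and Egfr at -51, both on the opposite strand, and Hbegf held none of the 5 motifs. Of 33469 promoter windows of this length, 1.59% held the CRE, 30.5% the GC box, 12.9% the TATA box, 6.34% the AP-1 site and 3.40% the ATF4-C/EBP element. No AP-1 site or ATF4-C/EBP element lay in any of the 7 windows. G and C made up 67.6% of the Hbegf window, 74.4% of Tgfa, 54.4% of Areg and 63.6% of Egfr. A match describes letters only, and a missing one says nothing of the factor.

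Of the 10 genes 9 passed the filter on low counts and 3 of these rose after si-hnrnpa2b1: Nrg1, Hbegf and Tgfa, all ligands. No ligand and no receptor fell by that test. A gene is said to have risen or fallen where the Benjamini-Hochberg adjusted p over all 12261 tested genes, by the quasi-likelihood test of edgeR, was below 0.05; 5.30% of all tested genes passed in either direction and 2.36% rose. Groups did not overlap in 6 of the 9 genes, 3 higher and 3 lower in si-hnrnpa2b1, where 23.4% of all tested genes had no overlap (11.5% higher and 11.9% lower). Since the genes were picked with this contrast known, nothing is read from these shares. Tgfa passed the filter through the si-hnrnpa2b1 group alone, in which all 3 libraries reached the minimum of 0.680 CPM (by library total alone) and no NC library did; NC replicate 2 was closest at 9 counts.

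**Figure D2:**
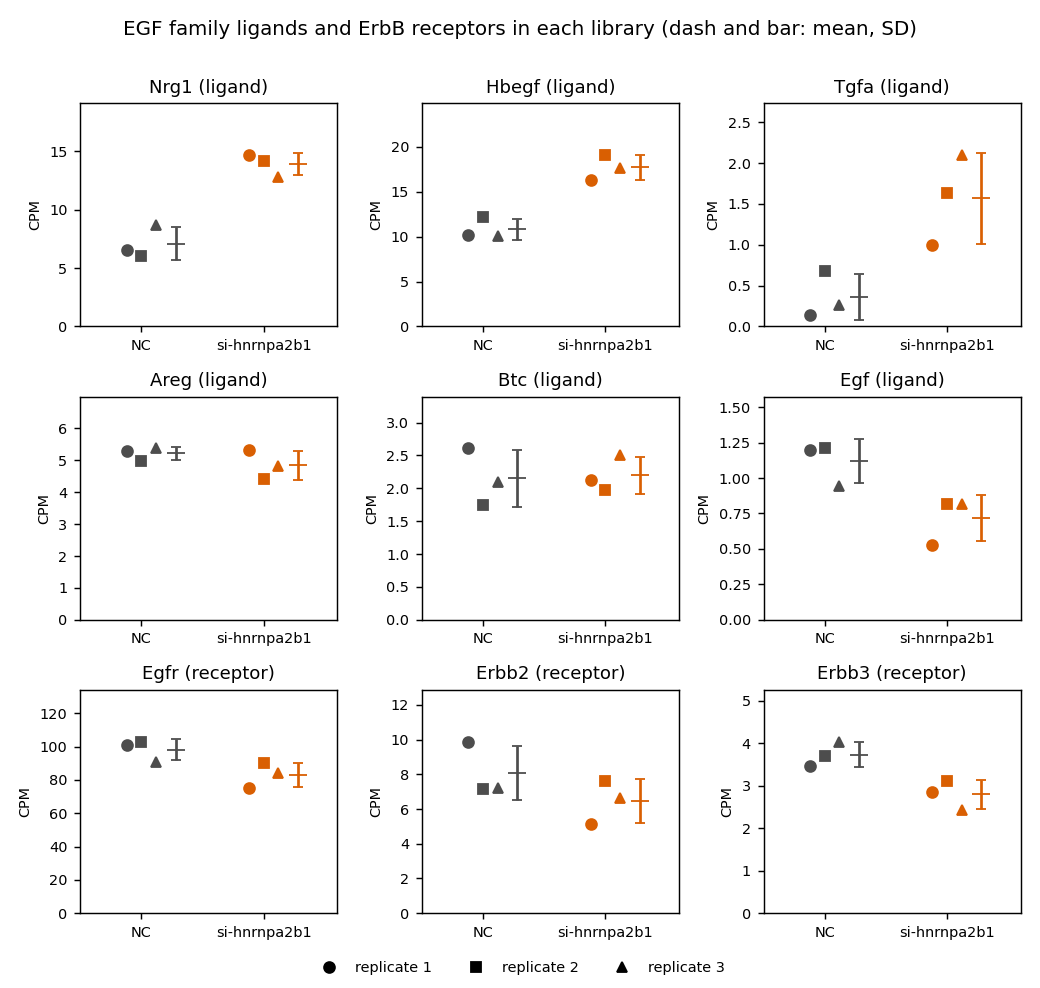
CPM of the 9 tested genes in each library (symbols are replicates; dash and bar give mean and SD; each axis starts at 0). Nrg1, Hbegf and Tgfa are wholly higher in si-hnrnpa2b1, Egf, Egfr and Erbb3 wholly lower, and Areg, Btc and Erbb2 overlap between groups.

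Nrg1, whose product neuregulin-1 signals through ErbB3 and ErbB4 (ENSRNOG00000010392, Rnor_6.0 chromosome 16, 63837216 to 64057434), had 6.56, 6.05 and 8.68 CPM in NC and 14.7, 14.2 and 12.8 CPM in si-hnrnpa2b1 libraries. All 3 si-hnrnpa2b1 values lay above the highest NC value, which was that of NC replicate 3. The rise was 1.95-fold (log2 0.96 ± 0.14, edgeR adjusted p = 7.2e-04), and it rested on 921 counts over the 6 libraries. Its size was number 99 among the 12261 tested genes. The spread was wider in NC (coefficient of variation 19.7%) than in si-hnrnpa2b1 libraries (6.89%).

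Hbegf, whose product is heparin-binding EGF-like growth factor (ENSRNOG00000018646, chromosome 18, 29329764 to 29340403), had 10.2, 12.2 and 10.1 CPM in NC and 16.3, 19.1 and 17.6 CPM in si-hnrnpa2b1 libraries. The groups did not overlap, and replicate 2 was the highest in both. The rise was 1.63-fold (log2 0.71 ± 0.12, edgeR adjusted p = 0.0018). The calls for Nrg1 and Hbegf held in all 15 alternatives run, with adjusted p up to 0.023 and 0.017.

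Tgfa, which encodes the EGFR ligand TGF-alpha (ENSRNOG00000016182, chromosome 4, 117962319 to 118046344), was far lower in level, with 2, 9 and 4 counts in NC and 15, 24 and 31 counts in si-hnrnpa2b1 libraries. In CPM these were 0.141, 0.681 and 0.269 against 0.995, 1.63 and 2.10. The groups did not overlap, but the exact Poisson 95% interval of NC replicate 2 (4.12 to 17.1 counts) overlapped with that of si-hnrnpa2b1 replicate 1 (8.40 to 24.7 counts). The log2 fold change was 2.12 ± 0.49, or 4.33-fold (edgeR adjusted p = 0.019). The call was lost when NC replicate 1 or 3 was left out (adjusted p = 0.083 and 0.064), when si-hnrnpa2b1 replicate 2 or 3 was left out (0.077 and 0.099) and by limma on log2(FPKM + 1) and log2(FPKM + 0.1) (0.13 and 0.077), and DESeq2 gave no adjusted p. The log2 fold change was 2.88 without NC replicate 2, 1.33 by limma on log2(FPKM + 0.1) and 0.32 by limma on log2(FPKM + 1), where the pseudocount exceeds every value of this gene.

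The other ligands did not pass. Areg, which encodes amphiregulin, had 5.29, 4.99 and 5.38 CPM in NC and 5.31, 4.41 and 4.81 CPM in si-hnrnpa2b1 libraries, with overlapping groups (log2 -0.11 ± 0.17, edgeR adjusted p = 0.80). Btc, which encodes betacellulin, had 2.61, 1.74 and 2.09 CPM against 2.12, 1.97 and 2.51 CPM (log2 0.03 ± 0.26, edgeR adjusted p = 0.97). Its sign turned without NC replicate 2 (-0.09) or si-hnrnpa2b1 replicate 3 (-0.07). Egf had 1.20, 1.21 and 0.942 CPM against 0.531, 0.814 and 0.814 CPM. These values did not overlap, but they stood for 8 to 17 counts per library (log2 -0.63 ± 0.37, edgeR adjusted p = 0.40).

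Summed over the 7 ligands, ligand transcripts came to 11.7, 11.8 and 11.9 FPKM in NC and 15.5, 16.2 and 16.0 FPKM in si-hnrnpa2b1 libraries, 1.34 times the NC mean. The groups were apart. Between NC libraries Hbegf (4.41 to 5.22 FPKM) and Nrg1 (1.13 to 1.65 FPKM) each varied more than the sum, so its narrow range is no measure of its error. Of the difference between means of 4.08 FPKM, Hbegf gave 2.95, Nrg1 1.27 and Tgfa 0.269 FPKM, while Areg was lower by 0.348 FPKM in si-hnrnpa2b1 (4.24 against 4.59 FPKM). The share of Hbegf in the ligand sum was 39.8% ± 3.91 in NC and 48.1% ± 3.12 in si-hnrnpa2b1, and that of Nrg1 was 11.4% ± 2.23 and 16.5% ± 1.22. Areg held 38.8% ± 1.85 in NC and 26.7% ± 2.87 in si-hnrnpa2b1 libraries. The lower share stood in a larger sum, and its own level did not pass the test. Since the ligands were picked with the contrast known, the sums were not tested. In RNA from whole cultures, a change in the number of expressing cells and a change in RNA per cell cannot be told apart.

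**Figure D3:**
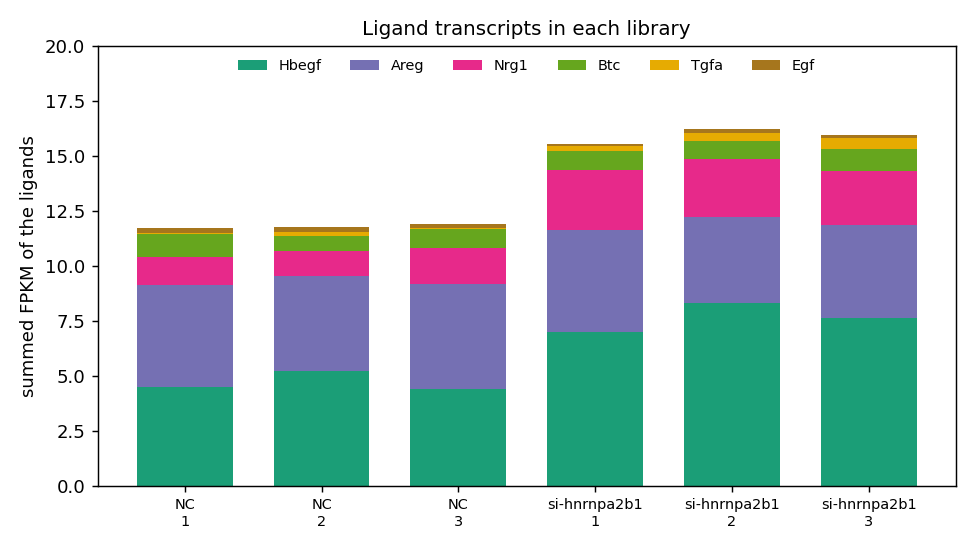
Summed FPKM of the ligands in each library, stacked by gene (Ereg, at 1 count in all, is not drawn). The NC bars reach 11.7 to 11.9 FPKM and the si-hnrnpa2b1 bars 15.5 to 16.2 FPKM, and the Hbegf and Nrg1 segments are taller in the latter.

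None of the 3 receptors passed edgeR's test; by DESeq2 1 passed and by unadjusted p below 0.05 there was also 1, Egfr in each case. Of the 11546 genes that DESeq2 gave an adjusted p, 5.73% passed, and of the 12261 genes tested by edgeR, 18.3% had an unadjusted p below 0.05. Egfr (ENSRNOG00000004332, chromosome 14, 99919485 to 100098796) had 101, 103 and 91.0 CPM in NC and 75.2, 90.0 and 83.9 CPM in si-hnrnpa2b1 libraries. The groups were apart by a small margin, between NC replicate 3 and si-hnrnpa2b1 replicate 2. Its log2 fold change was -0.24 ± 0.07, or 15.5% lower by the fit (edgeR adjusted p = 0.058). It passed by DESeq2 (adjusted p = 0.038) and without NC replicate 3 (edgeR adjusted p = 0.031) or si-hnrnpa2b1 replicate 2 (0.046), and its adjusted p ranged from 0.031 to 0.23 over the alternatives.

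Erbb3, the neuregulin receptor (chromosome 7, 2989340 to 3010350), had 3.46, 3.71 and 4.04 CPM in NC and 2.85, 3.12 and 2.44 CPM in si-hnrnpa2b1 libraries. The groups did not overlap (log2 -0.41 ± 0.21, edgeR adjusted p = 0.31). Erbb2, the shared partner receptor (chromosome 10, 86367596 to 86391728), had 9.88, 7.18 and 7.20 CPM against 5.11, 7.59 and 6.64 CPM, with overlap (log2 -0.33 ± 0.18, edgeR adjusted p = 0.35). The log2 fold changes of all 3 receptors were below 0 in every alternative run, and those of Nrg1, Hbegf and Tgfa above 0 in every alternative that gave them a value. The makeup of the receptor sum was close in both groups: Egfr made up 92.4% ± 0.771 in NC and 92.9% ± 0.411 in si-hnrnpa2b1 libraries. Summed CPM of 7 cholangiocyte and epithelial markers was 31.5 to 32.8 in NC and 27.8 to 30.4 in si-hnrnpa2b1 libraries, without overlap. Of the 7, Krt7, Sox9 and Krt8 reached the test and did not pass it, Epcam was at 0, and their part in the result was not tested. Of 8 mesenchymal and stellate cell markers 6 were tested, of which Acta2 (142 to 171 CPM, edgeR adjusted p = 0.0049) and Des (58.4 to 72.2 CPM, edgeR adjusted p = 0.014) rose, where 2.36% of all tested genes did. Vim, Col1a1, Col3a1 and Pdgfrb did not pass, with log2 fold changes of 0.13, -0.01, -0.03 and 0.01, and Lrat and Col1a2 were at 0. The sum of the list was 15182 to 15563 CPM in NC and 15083 to 16043 CPM in si-hnrnpa2b1 libraries; their part was not tested either. Endothelial markers summed to 40.4 to 46.5 CPM in NC and 46.1 to 48.7 CPM in si-hnrnpa2b1 libraries.

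**Figure D4:**
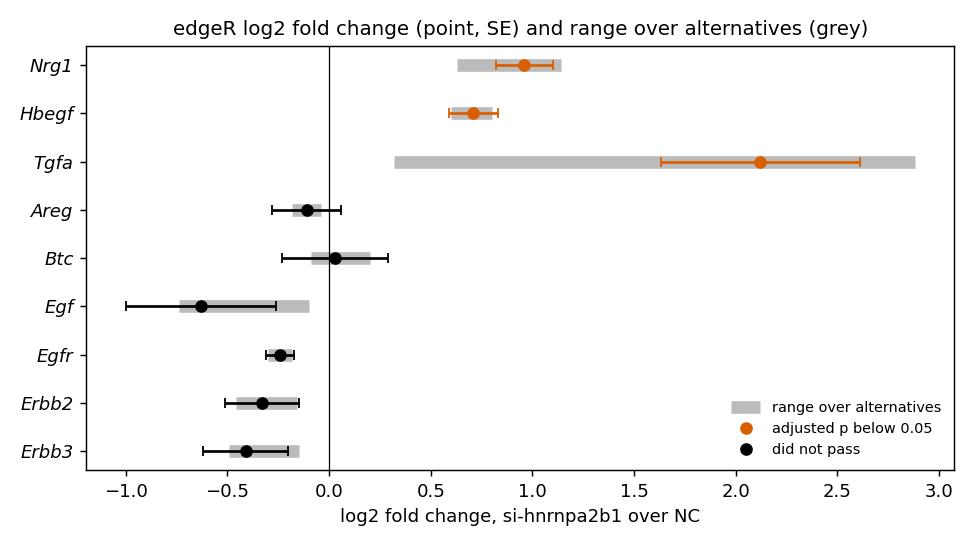
edgeR log2 fold change (si-hnrnpa2b1 over NC) of each tested gene with its SE, orange where the adjusted p was below 0.05, over a grey bar spanning the values under the 15 alternatives (fewer for Tgfa and Egf). The bar of Tgfa runs from 0.32 to 2.88, and those of the 3 receptors stay below 0.

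Areg, Ereg, Btc and Epgn lie side by side on chromosome 14 of Rnor_6.0, within 402 kb (18231860 to 18634309). These neighbours differed widely in level: Areg gave 437 counts over the 6 libraries, Btc 189, Ereg 1 and Epgn 0. Neither of the tested pair passed the test. Among all 21 gene models from 500 kb before to 500 kb after this stretch, a window set after the values were seen, 8 were tested and 2 passed, where 5.30% of all tested genes did. Both were chemokine genes that fell, Cxcl1 (log2 -0.41) and Cxcl6 (log2 -1.56), whose starts lie 512 kb and 628 kb from that of Btc.

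Among genes that release the ligands, Adam17, the main protease for TGF-alpha, amphiregulin and HB-EGF, fell while Adam10 did not pass. Adam17 had 234, 242 and 221 CPM in NC and 194, 190 and 189 CPM in si-hnrnpa2b1 libraries. The groups were well apart, and the fall was 17.6% (log2 -0.28 ± 0.05, edgeR adjusted p = 0.0018), a call held in all 15 alternatives. Adam12, a further metalloprotease linked to HB-EGF release, fell from 116 ± 0.407 to 97.9 ± 7.98 CPM (edgeR adjusted p = 0.023), and Adam19, linked to neuregulin processing, rose from 306 ± 8.79 to 344 ± 15.4 CPM (edgeR adjusted p = 0.047). Rhbdf2, an inactive rhomboid that carries ADAM17 to the surface, had 62.3 ± 2.71 and 53.1 ± 3.31 CPM (edgeR adjusted p = 0.055). In this list of 10 tested genes there was 1 rise, 2 falls and 7 that did not pass, or 30.0% called against 5.30% of all tested genes. Since the list was chosen with earlier results of these data known, nothing is read from that share. The median log2 fold change was -0.07 against -0.0015 over all tested genes. When NC replicate 1 or 3 or si-hnrnpa2b1 replicate 3 was left out, and by limma on FPKM, only 1 member passed, Adam17. The Adam19 call was lost in 8 of 15 alternatives, also with total counts alone (adjusted p = 0.055), with the replicate block (0.078) and when si-hnrnpa2b1 replicate 2 was left out (0.19). When si-hnrnpa2b1 replicate 1 was left out, Rhbdf2 passed (0.040) and Adam12 did not (0.11).

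Inhibitors and turnover factors of the receptors did not pass. Of 17 tested genes, among them Errfi1, Lrig1 and Cbl, 0 passed by edgeR or by DESeq2. Over all genes with an adjusted p, 5.30% passed by edgeR and 5.73% by DESeq2, and nothing is read from that difference. Of the 17, 3 had an unadjusted edgeR p below 0.05, a level that 18.3% of all tested genes reached. The median log2 fold change was -0.01. The smallest adjusted p were those of Lrig2, a leucine-rich transmembrane relative of the ErbB inhibitor Lrig1 (23.6 ± 1.89 and 19.3 ± 1.74 CPM, edgeR adjusted p = 0.13), the deubiquitinase Usp8 (109 ± 4.28 and 99.1 ± 3.56 CPM, 0.20), the endocytic adaptor Eps15 (97.0 ± 3.10 and 89.5 ± 1.50 CPM, 0.26) and Lrig3 (14.3 ± 2.34 and 11.9 ± 1.26 CPM, 0.31).

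Of 34 tested adaptors and relay genes between the receptors and the nucleus, Stat3 alone passed. This transcription factor, which cytokine and growth factor receptors activate, had 338, 368 and 327 CPM in NC and 287, 284 and 290 CPM in si-hnrnpa2b1 libraries. The groups did not overlap, and the fall was 16.6% (log2 -0.26 ± 0.05, edgeR adjusted p = 0.0041). Its relative Stat5a had 34.2 ± 0.827 and 28.6 ± 0.802 CPM (edgeR adjusted p = 0.055), the Ras exchange factor Sos1 110 ± 5.72 and 101 ± 3.46 CPM (0.25) and the PI3-kinase subunit Pik3r2 76.9 ± 3.19 and 71.2 ± 3.42 CPM (0.36). The share called was 2.94%, a single gene, where 5.30% of all tested genes passed, and nothing is read from that difference. The median was -0.04 against -0.0015, with all values between -0.28 and 0.12.

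Among early response and feedback targets of ErbB and ERK signalling, 4 of 22 tested genes rose, 0 fell and 18 did not pass. This is a share of 18.2%, where 5.30% of all tested genes passed and 2.36% rose. The list was chosen with earlier results of these data known, so nothing is read from these shares. Ccnd1, which encodes cyclin D1, had 143, 157 and 151 CPM in NC and 213, 233 and 220 CPM in si-hnrnpa2b1 libraries, with no overlap (log2 0.56 ± 0.05, edgeR adjusted p = 8.8e-06). Myc rose from 28.7 ± 1.61 to 40.7 ± 0.696 CPM (edgeR adjusted p = 6.4e-04), a log2 fold change of 0.50 ± 0.07. The Sprouty genes Spry4 and Spry2, feedback inhibitors of receptor tyrosine kinase signalling, rose from 20.8 ± 1.74 to 29.6 ± 1.96 CPM and from 23.0 ± 2.46 to 30.9 ± 2.95 CPM (edgeR adjusted p = 0.0040 and 0.017). The Spry2 call was lost when NC replicate 1 or 3 or si-hnrnpa2b1 replicate 1 was left out (adjusted p up to 0.094). Not every gene of this kind moved with them: the log2 fold changes were -0.02 for Egr1, 0.11 for Dusp6, -0.26 for Fos and -0.31 for Spry1, none of which passed, examples chosen after their values were seen. The list median was 0.11, with 13 values above 0 and 9 below.

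**Figure D5:**
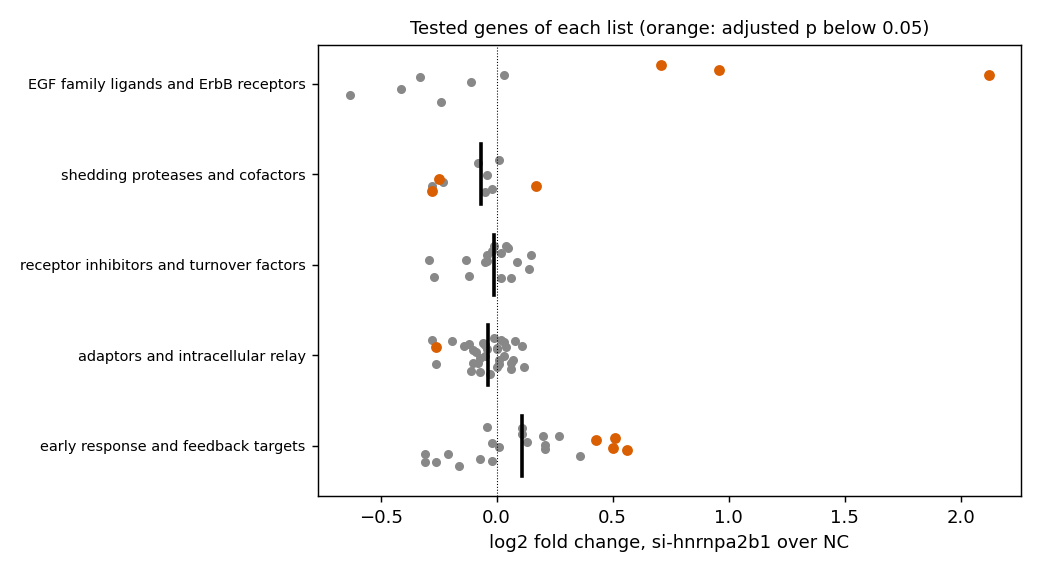
log2 fold change (si-hnrnpa2b1 over NC) of each tested gene in the family and in the 4 pathway lists, orange where the adjusted p was below 0.05; black bars are medians of the pathway lists, and vertical scatter within a row is for display. The called targets lie at 0.43 to 0.56, while the relay genes lie between -0.28 and 0.12.

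The genes whose profile over the 6 libraries was most like that of Nrg1, by the root mean square (RMS) difference of centred log2 CPM, were Clic5 (0.0539), Adamts5 (0.0911) and Lgr5 (0.150), against a median of 0.519 over 9270 genes compared. Clic5 encodes a chloride intracellular channel protein and went from 6.90 ± 1.05 to 12.8 ± 0.817 CPM, Adamts5 encodes an aggrecan-cleaving protease and went from 6.71 ± 0.788 to 12.9 ± 0.689 CPM, and Lgr5 encodes a receptor for R-spondins and went from 16.5 ± 2.20 to 26.8 ± 1.34 CPM. For Egfr the nearest were Tsc1 (0.0282), Ascc3 (0.0318) and Cep350 (0.0370), against a median of 0.182. The likeness is over 6 libraries of 2 groups, in which genes that differ between the groups by the same amount come out alike.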

How the data were processed

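The data were counts and FPKM per gene for 6 BRL-3A libraries, 3 per group. Groups and replicate numbers come from the sample titles, and no column with values of a sample was set aside. HISAT2 2.0.4, StringTie 1.3.0, edgeR and the build Rnor_6.0 are named, without roles, per the submitters' processing notes. The deposited counts are whole numbers and not normalized, per the file headers. With the counts and column totals, the FPKM values deposited by the authors imply the same length for a gene in every library, to within 0.0035%. Low counts were left out of this check, and the implied lengths were not compared with annotated ones. No source used here gives the annotation release, the counter or the strand setting.

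Counts were tested in R 4.3.3 with edgeR 4.0.16: filterByExpr (minimum count 10, minimum total 15) kept 12261 genes, TMM factors were 0.989 to 1.01, and the quasi-likelihood F-test was two-sided, without covariates, with p-values adjusted by Benjamini-Hochberg over the whole table and called below 0.05. Counts were also simulated for this comparison, with 12264 genes tested. Recovery was 78 of 100 genes changed by 0.5 and 99 of 100 changed by 1 on the log2 scale. Of the unchanged genes, 7 were called. Recovery at the levels of Areg, Erbb2, Erbb3, Btc, Egf and Tgfa (SE 0.17, 0.18, 0.21, 0.26, 0.37 and 0.49) was not tested separately. The rates are therefore not applied to these genes. Replicates differed beyond sampling noise (chi-square per degree of freedom 2.91 to 6.00).

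The genes and the pathway lists were chosen with earlier results of these data known. The text names the 10 genes, 5 others of the family, Hnrnpa2b1, up to 4 tested genes per pathway list with the smallest adjusted p, and the 3 genes most like Nrg1 and Egfr with at least 5 CPM on average (log2 CPM with prior count 2; symbols that are placeholders were left out). Of list entries, Crkl, Ier2 and Pecam1 were not matched, and Grb2 was taken from the model with more counts. Alternatives were DESeq2 1.42.0, other scalings and filters, limma 3.58.1 on log2 FPKM, the replicate block and leaving out each library. Intervals and limits of 0 counts cover counting error only.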

Additional observations from a re-analysis of the deposited data

How the results depend on the processing

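Of 386 log2 fold changes of the genes above under 15 alternatives, 357 kept their direction and side of the threshold, 23 lost a call, 4 gained one and 2 reversed, both of Btc (-0.09 and -0.07; range -0.09 to 0.20 when a library was left out). The number of called genes was 650 of all tested, 343 and 350 by limma on log2(FPKM + 1) and log2(FPKM + 0.1), and 379 to 592 when a library was left out; the cause was not tested. Of the ligands and receptors 3 were called, and 2 to 3 when a library was left out; by DESeq2, and with NC replicate 3 or si-hnrnpa2b1 replicate 2 left out, the 3 were Nrg1, Hbegf and Egfr in place of Tgfa. At least 1 CPM in 3 libraries left 2, since Tgfa and Egf were then not tested. The release list had 3 called genes, 1 by limma with either pseudocount, and 1 to 3 when a library was left out. Early response targets gave 3 to 5. Same-numbered libraries were not shown to be paired (correlation of their deviations 0.057, -0.0039 and 0.059); the replicate block gave 481 called genes, 3 of the ligands and receptors and 2 of the release list. Depth limits Tgfa, Egf and the genes near 0 most.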
